A study of Homo sapiens with 12 samples.

Results

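A375 is an established human melanoma cell line, and the comparison described here set cells whose MAPKAPK2 gene had been knocked out with CRISPR/Cas9 against wild-type cells while both were exposed to JQ1. Its members were the 3 knockout and the 3 wild-type samples given 500 nM JQ1 for 48 h, 6 of the 12 libraries in the series. The other 6 libraries were 3 knockout and 3 wild-type samples given DMSO for the same 48 h, the vehicle in which JQ1 is dissolved. They were used to estimate the spread and to set the genotype difference without the drug beside the one under it. Total RNA was depleted of ribosomal RNA and sequenced from strand-marked libraries. The series asks how loss of MAPKAPK2 bears on resistance to inhibitors of BET proteins. The labels do not say whether the knockout is a single clone or a pool, so effects of the edit and of any clone carrying it cannot be told apart, nor do they say that replicates are separate cultures. If they are not, the p-values measure only the spread between these libraries, which may be technical.

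MAPKAPK2 encodes MK2, a kinase switched on by the stress kinase p38. Active MK2 phosphorylates the small heat shock protein HSP27 and tristetraprolin, a protein that binds AU-rich elements in the 3′ untranslated regions of short-lived mRNAs and marks them for decay, and phosphorylation weakens that action. Cytokine and chemokine mRNAs are the classic transcripts of this kind. JQ1 occupies the bromodomains of the BET proteins and displaces them from acetylated chromatin, which lowers transcription of genes that depend on them. A375 carries an activating BRAF mutation, which keeps the ERK pathway on.

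Total estimated counts ranged from 25316565 to 34158553 over the 6 JQ1 libraries, with 31252 to 33006 gene symbols detected in each. The labelled cell type was checked against marker genes. Of 7 melanocyte markers, only MITF, SOX10 and PMEL averaged at least 1 CPM (counts scaled to 1000000 per library), with a summed level of 551 to 641 CPM in wild type and 511 to 717 CPM in the knockout, while TYR, DCT, TYRP1 and MLANA, the pigment genes, stayed below 1 CPM. Summed markers of keratinocytes (5.32 to 5.59 against 3.998 to 5.32 CPM), fibroblasts (10.5 to 13.2 against 8.10 to 9.58 CPM), leukocytes (1.79 to 2.10 against 2.03 to 2.40 CPM) and endothelium (12.1 to 13.0 against 6.09 to 7.996 CPM, nearly all KDR) were low in both genotypes. In bulk RNA, fewer cells of a kind and less RNA per cell cannot be told apart. Replicate 3 of the knockout under JQ1 stood apart from its 2 companions. The chi-square statistic of its counts against them was 23.8 and 25.1 per degree of freedom, against 3.21 to 7.05 for the other replicate pairs of the series. The 4 abundant structural RNAs (RMRP, RN7SK, RN7SL2, RN7SL1) took 14.6% of its counts, against 10.6% to 12.3% in the other JQ1 libraries. Results are therefore given with it and, where the answer changed, without it.

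The targeted gene itself separated the genotypes. MAPKAPK2 (chromosome 1, 206684944 to 206734283 on the + strand, GRCh38) measured 119, 119.7 and 112 CPM in wild type and 14.9, 12.6 and 15.7 CPM in the knockout, an 8.11-fold difference (log2 fold change -3.02 ± 0.085 SE, adjusted p = 1.54e-11). Its transcript was low but still present in each knockout library. Of its relatives, MAPKAPK3, which shares substrates with MK2, measured 19.3 to 23.5 CPM in wild type and 15.2 to 17.2 CPM in the knockout (log2 fold change -0.36 ± 0.087 SE, adjusted p = 0.0162), a small fall whose call was lost when the 6 JQ1 libraries were fitted alone (adjusted p = 0.0925), or without knockout replicate 1 (0.0511), knockout replicate 2 (0.0623) or wild-type replicate 2 (0.0905), the lowest and highest over all alternatives being 0.00406 and 0.0925. MAPKAPK5 (log2 -0.0087, adjusted p = 0.977) and MAPK14, the gene of p38 alpha (log2 -0.0092, adjusted p = 0.964), did not pass the test. HSPB1, the gene of HSP27, measured 71.9, 67.02 and 63.2 CPM in wild type and 52.5, 51.3 and 72.4 CPM in the knockout (log2 fold change -0.20 ± 0.11 SE, adjusted p = 0.332). Replicate 3 of the knockout lay just above the highest wild-type library, unlike the other 2, and without it the adjusted p was 0.00174, the range over all alternatives being 0.00174 to 0.655. Of the 23 genes of the p38 and MK2 cascade that were tested, 4 fell (17.4%, against 5.56% of all tested genes) and none rose. They include the targeted gene MAPKAPK2 itself, and MAPKAPK3. The other 2 that fell were DUSP10, a phosphatase acting on p38 and JNK (32.2 to 35.4 CPM in wild type and 24.4 to 25.2 CPM in the knockout, log2 -0.45, adjusted p = 0.000523), and MAP2K6, a kinase that activates p38 (20.7 to 23.3 CPM in wild type and 11.998 to 16.7 CPM in the knockout, log2 -0.60, adjusted p = 0.00223). MAPKAPK2 and DUSP10 lie in a stretch of chromosome 1 where most genes were lower, described further on. Outside such stretches 2 of 21 tested genes of the cascade fell, against 4.99% of all genes there.

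Across the transcriptome, 21698 of 56609 gene symbols passed the filter on low counts, and 1860 of them (8.57%) differed between genotypes under JQ1 at an adjusted p under 0.05. Of these, 653 (3.01% of those tested) were higher and 1207 (5.56%) lower in the knockout. At a log2 fold change of 1 or more in size, 85 were higher and 364 lower, so the larger changes were mostly falls. The median log2 fold change was -0.0015 over all tested genes, 0.39 over the genes called higher and -0.63 over those called lower. Without knockout replicate 3, 22273 genes were tested and 2331 (10.5%) called, 850 higher (3.82%) and 1481 lower (6.65%). These included 1574 of the original 1860, each in the original direction, while 286 lost and 757 gained the call. With the 6 JQ1 libraries fitted alone the count was 922 of 19776 (4.66%), 280 higher (1.42%) and 642 lower (3.25%), and without wild-type replicate 2 it was 1223. Scaling by library totals alone gave 496 higher and 1359 lower, moving the share of lower calls from 64.9% to 73.3% and the median of all genes by less than 0.1 on the log2 scale. Called shares of 57 families and programmes are read below against the 8.57% over all genes, and 43 of them lay above it.

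**Figure D1:**
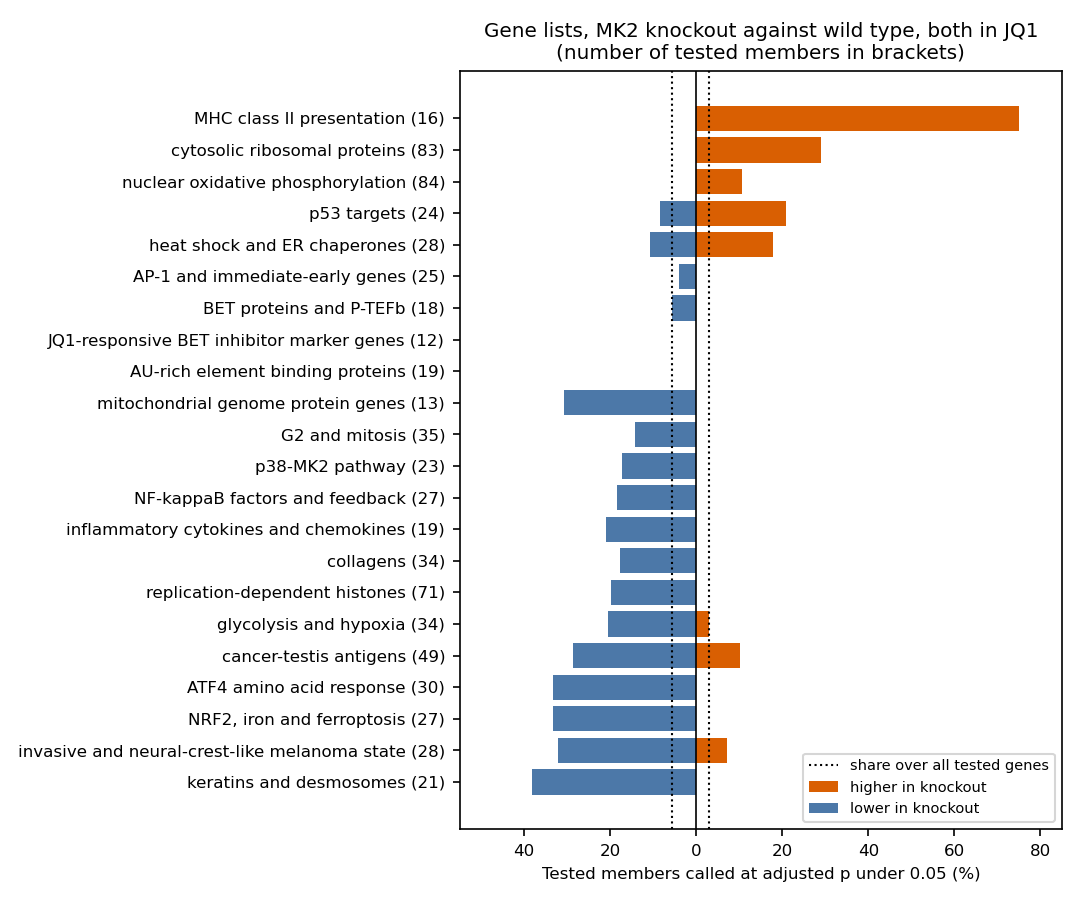
Share of tested members (%) called higher (bars to the right) and lower (bars to the left) in the knockout under JQ1 at an edgeR adjusted p under 0.05, for 22 gene lists with their tested number in brackets; dotted lines mark the shares over all tested genes, 3.01% and 5.56%. MHC class II genes (12 of 16) and cytosolic ribosomal proteins (24 of 83) have bars on the higher side only, and the ATF4, NRF2, keratin and histone lists on the lower side only.

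The inflammatory genes called under JQ1 were all lower in the knockout. Of 31 listed cytokines, chemokines and linked enzymes, 19 passed the low-count filter and 4 fell (21.1%, against 5.56% of all tested genes). CXCL8, the neutrophil chemokine interleukin 8 (chromosome 4, 73740506 to 73743716 on the + strand), measured 12.8, 13.7 and 14.5 CPM in wild type and 2.32, 1.99 and 1.27 CPM in the knockout, a 7.44-fold difference (log2 fold change -2.90 ± 0.16 SE, adjusted p = 2.22e-08). CXCL1, another neutrophil chemokine that lies near CXCL8 on the same chromosome, measured 2.58, 2.52 and 1.83 CPM in wild type and 1.22, 0.852 and 0.538 CPM in the knockout (log2 fold change -1.42 ± 0.23 SE, adjusted p = 0.00108). IL24, a cytokine of the interleukin 10 family (chromosome 1, 206897443 to 206904139 on the + strand), measured 177, 199 and 183 CPM in wild type and 42.95, 37.4 and 38.1 CPM in the knockout, a 4.72-fold difference (log2 fold change -2.24 ± 0.076 SE, adjusted p = 9.08e-11). In all 3 genes each knockout library lay below each wild-type library. PTGS2, the inducible cyclooxygenase that makes prostaglandins, measured 1.099, 0.668 and 1.27 CPM in wild type and 0.419, 0.162 and 0.443 CPM in the knockout (log2 fold change -1.54 ± 0.36 SE, adjusted p = 0.0138). At this low level its call was lost with the JQ1 libraries fitted alone (adjusted p = 0.0567) and without wild-type replicate 3 (0.066), the range over alternatives being 0.00127 to 0.066. The median log2 fold change of the 19 was -0.30, and 17 were negative. In DMSO 8 of the 19 were called lower and 1 higher, with a median of -0.75. All 4 that fell under JQ1 were also called lower in DMSO. IL6 was listed at 0 in all 6 libraries, and LIF, named after its values were seen, measured 45.1 to 55.3 CPM in wild type and 45.8 to 60.1 CPM in the knockout (log2 0.071, adjusted p = 0.786).

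IL24 sits close to MAPKAPK2 in a stretch of chromosome 1 where most genes were lower, described further on, so its fall cannot be told apart from that of its neighbours by position. CXCL8, CXCL1 and PTGS2 lie outside that stretch or, for PTGS2, elsewhere on chromosome 1. Outside such stretches 3 of 17 tested genes of the list fell, against 4.99% of all genes there.

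NF-κB is the transcription factor family behind much inflammatory expression. Of its 27 listed partners, targets and feedback genes 5 fell (18.5%, against 5.56% of all tested genes) while none rose. ICAM1, a cell adhesion receptor for leukocytes (chromosome 19, 10270835 to 10286615 on the + strand), measured 23.9, 25.4 and 21.2 CPM in wild type and 7.58, 8.196 and 9.75 CPM in the knockout (log2 fold change -1.46 ± 0.10 SE, adjusted p = 3.25e-07). BIRC3, an inhibitor of apoptosis in TNF receptor complexes, measured 10.5, 11.2 and 10.9 CPM in wild type and 5.03, 4.67 and 3.96 CPM in the knockout (log2 fold change -1.26 ± 0.10 SE, adjusted p = 1.71e-06). TRAF1, an adaptor of the same receptors, measured 10.8 to 14.5 CPM in wild type and 4.15 to 5.63 CPM in the knockout, with a log2 fold change of -1.39 (adjusted p = 6.19e-06). TNFAIP2 changed by -0.84 (adjusted p = 0.00032) on the log2 scale and TNFAIP3, the feedback inhibitor A20 (named after its values were seen), by -0.90 (adjusted p = 0.0032). Libraries did not overlap in any of these 5. The genes of the factors themselves did not pass the test, and they and NFKBIA are named after their values were seen. NFKB1 measured 66.9 to 74.9 CPM in wild type and 68.8 to 75.3 CPM in the knockout (log2 0.031, adjusted p = 0.847). RELA measured 45.5 to 51.8 CPM in wild type and 41.7 to 49.5 CPM in the knockout (log2 -0.11, adjusted p = 0.554). The inhibitor NFKBIA, a rapid target, measured 13.4 to 14.7 CPM in wild type and 12.3 to 15.8 CPM in the knockout and did not pass either (log2 -0.046, adjusted p = 0.856). All 5 NF-κB-list genes that fell under JQ1 were also called lower in DMSO. Of 25 AP-1 and immediate-early genes 1 fell (4%), ATF3, with 5 falls without knockout replicate 3 and none without wild-type replicate 2.

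The letters upstream of 9 inflammatory genes (the 4 cytokine-list and 5 NF-κB-list members that fell) were searched for GGAANTTCC, a form of the NF-κB site that reads the same on both strands. It occurred in the 250 bases before the start of 3 of the 9, CXCL8, CXCL1 and ICAM1, and in 0.831% of 27305 promoters of that length. These 3 are shown because they hold the match. The capitals mark the match, and the sequences are from RefSeq on GRCh38.p14.
CXCL8 (chr4:73740319-73740568, + strand): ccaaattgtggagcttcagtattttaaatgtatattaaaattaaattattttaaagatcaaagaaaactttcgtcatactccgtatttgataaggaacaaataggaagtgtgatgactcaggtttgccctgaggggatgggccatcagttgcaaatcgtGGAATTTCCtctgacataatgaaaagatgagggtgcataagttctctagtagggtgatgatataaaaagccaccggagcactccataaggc
CXCL1 (chr4:73869143-73869392, + strand): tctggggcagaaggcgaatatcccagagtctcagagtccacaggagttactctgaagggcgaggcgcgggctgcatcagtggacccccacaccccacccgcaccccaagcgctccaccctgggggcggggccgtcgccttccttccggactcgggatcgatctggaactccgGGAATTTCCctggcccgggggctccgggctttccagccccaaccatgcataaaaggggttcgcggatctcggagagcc
ICAM1 (chr19:10270870-10271119, + strand): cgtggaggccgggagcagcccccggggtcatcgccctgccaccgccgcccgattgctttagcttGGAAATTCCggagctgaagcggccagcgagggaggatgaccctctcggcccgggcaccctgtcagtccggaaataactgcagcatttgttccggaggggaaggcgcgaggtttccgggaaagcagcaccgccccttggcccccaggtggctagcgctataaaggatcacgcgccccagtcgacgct
A match describes the letters only, and binding was not measured in these libraries. Listed genes that did not fall were not searched, so the share of matches says nothing about the falls.

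AU-rich elements are the mRNA feature that ties MK2 to transcript decay. The nonamer TTATTTATT, written as DNA, is its common core, and it was found in the 3′ untranslated regions of CXCL8, CXCL1 and PTGS2. These 3 were picked from the inflammatory genes that fell, and the others are not described for it. The first site in each is given below with the overlapping matches in capitals (GENCODE 29 transcripts).
CXCL8: tgtaaagtaTTATTTATTtgaatctaca
CXCL1: gtcttctatTTATTTATTTATTcattag
PTGS2: tgatcatatTTATTTATTtatatgaacc
The same 3 regions held 9, 5 and 22 copies of the shorter pentamer ATTTA, in that order. Over the transcriptome, 1360 of 13950 tested genes with an annotated 3′ untranslated region (9.75%) held the nonamer. Of these, 9.12% were called lower and 4.12% higher, with a median log2 fold change of -0.044. Among the 12590 genes without it, 7.16% were called lower and 3.93% higher, with a median of -0.0084. Genes with the nonamer had longer regions, with a median of 3091 bases against 1288, and the part of length in the difference was not tested. Thus the large falls of CXCL8 and CXCL1 were not shared by most genes with the element. Of 19 tested genes for proteins that bind such elements, among them the tristetraprolin family, none passed in the edgeR fit with TMM scaling and all 12 libraries (5 had an unadjusted p under 0.05). Library totals in edgeR, DESeq2 and limma each called 1 lower. Without knockout replicate 3, 1 rose and 2 fell.

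**Figure D2:**
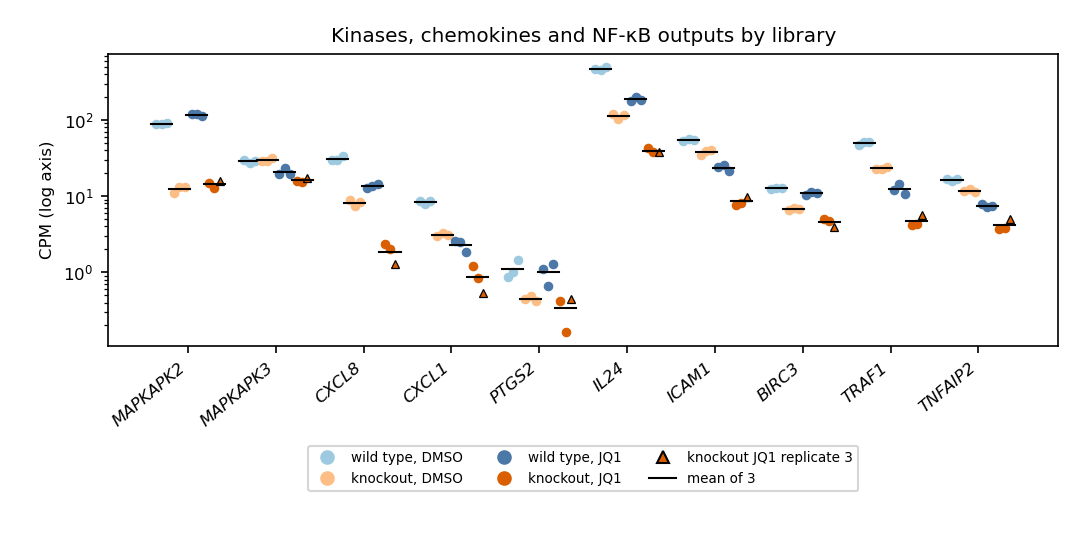
Level of inflammatory and NF-κB genes (CPM, log axis) in each of the 12 libraries, by genotype and treatment; lines are means of 3 and the triangle is knockout JQ1 replicate 3. In CXCL8, IL24, ICAM1 and BIRC3 the 3 knockout JQ1 points lie below all 3 wild-type JQ1 points, as they also do in DMSO.

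The genes that present antigen on MHC class II rose together. MHC class II molecules carry peptides from the endosome to CD4 T cells, and some melanomas express them without immune cells being present. All 16 listed genes passed the low-count filter and 12 rose (75.0%, against 3.01% of all tested genes), with none lower. The median log2 fold change was 0.47, 15 of 16 were positive, and the count ranged from 11 to 13 over the alternatives. HLA-DOA, a modulator of peptide loading (chromosome 6, 33004178 to 33009612 on the - strand), measured 11.5, 11.1 and 9.64 CPM in wild type and 25.1, 26.5 and 30.9 CPM in the knockout (log2 fold change 1.36 ± 0.10 SE, adjusted p = 4.97e-07). HLA-DMA, a chain of the peptide loader HLA-DM, measured 54.6, 59.3 and 54.3 CPM in wild type and 89.8, 86.5 and 87.4 CPM in the knockout (log2 fold change 0.65 ± 0.06 SE, adjusted p = 5.88e-06). HLA-DQA1, an alpha chain of the presenting molecules, measured 11.4, 10.02 and 10.5 CPM in wild type and 17.7, 19.5 and 21.8 CPM in the knockout (log2 fold change 0.89 ± 0.087 SE, adjusted p = 1.11e-05). HLA-DRA, the shared alpha chain of HLA-DR (chromosome 6, 32439842 to 32445046 on the + strand), measured 519, 540.1 and 519 CPM in wild type and 856, 774 and 712 CPM in the knockout (log2 fold change 0.57 ± 0.059 SE, adjusted p = 1.96e-05). None of the 4 showed any overlap between genotypes, and the third knockout library lay on the same side as its companions.

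The other class II genes that rose are named after their values were seen. HLA-DPA1 (0.47), HLA-DRB5 (0.52), HLA-DQB1 (0.50), HLA-DRB1 (0.46), HLA-DMB (0.45) and HLA-DPB1 (0.42) lay within a narrow band of log2 fold changes. CIITA, the master coactivator of these genes, measured 89.2, 88.4 and 75.8 CPM in wild type and 115, 116 and 158 CPM in the knockout (log2 fold change 0.62 ± 0.12 SE, adjusted p = 0.00314). CD74, the invariant chain that escorts class II molecules, measured 878, 849.9 and 745 CPM in wild type and 996, 1075 and 1181 CPM in the knockout (log2 fold change 0.40 ± 0.089 SE, adjusted p = 0.0108). Its call was lost without wild-type replicate 3 (adjusted p = 0.06, range over alternatives 1.35e-05 to 0.06). RFX5, a DNA-binding partner of CIITA, measured 153 to 161 CPM in wild type and 161 to 174 CPM in the knockout and did not pass (log2 0.10, adjusted p = 0.333). Reads from HLA paralogs such as HLA-DRB1 and HLA-DRB5 can be split between genes by the counting, and a cell line's own alleles can differ from the reference, so the division among them is uncertain. Leukocyte markers were near the floor in both genotypes, with none of 5 defining genes at a mean of 1 CPM. In DMSO 11 of the 16 were also higher, 10 of them called in both conditions, and edgeR's test of the difference of the genotype effect between conditions called none of the 16 (3 had an unadjusted p under 0.05).

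Class II promoters are known for an inverted CCAAT box, the Y box, bound by NF-Y next to the sites of RFX and CREB. Its letters, CTGATTGG on either strand, were found before 4 of the 10 risen class II genes that had a RefSeq entry, against 3.98% of 27305 promoters of the same length. These are printed to show the shared block around the box, on GRCh38.p14, with the match in capitals and each read in the direction of transcription.
HLA-DMA (chr6:32953098-32953347, - strand): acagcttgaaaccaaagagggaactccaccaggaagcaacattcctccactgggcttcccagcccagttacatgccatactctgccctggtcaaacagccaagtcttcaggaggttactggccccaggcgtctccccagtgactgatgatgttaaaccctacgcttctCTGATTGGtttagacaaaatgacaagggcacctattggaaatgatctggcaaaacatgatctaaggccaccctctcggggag
HLA-DRB1 (chr6:32589849-32590098, - strand): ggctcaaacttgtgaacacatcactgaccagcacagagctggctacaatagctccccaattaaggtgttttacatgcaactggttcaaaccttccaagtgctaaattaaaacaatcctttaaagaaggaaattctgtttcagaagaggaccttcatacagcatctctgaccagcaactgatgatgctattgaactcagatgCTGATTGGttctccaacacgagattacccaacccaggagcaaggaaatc
HLA-DRB5 (chr6:32530288-32530537, - strand): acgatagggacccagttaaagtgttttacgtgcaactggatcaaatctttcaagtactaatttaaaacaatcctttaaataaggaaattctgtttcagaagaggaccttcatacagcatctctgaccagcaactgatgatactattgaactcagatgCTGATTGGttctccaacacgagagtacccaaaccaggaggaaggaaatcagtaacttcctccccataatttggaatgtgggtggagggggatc
HLA-DQB1 (chr6:32666658-32666907, - strand): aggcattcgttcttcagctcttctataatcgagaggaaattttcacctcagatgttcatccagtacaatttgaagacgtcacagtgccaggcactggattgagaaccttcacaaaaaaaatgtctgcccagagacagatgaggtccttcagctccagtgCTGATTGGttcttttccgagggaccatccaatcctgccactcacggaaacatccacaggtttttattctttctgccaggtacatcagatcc
HLA-DRB1 and HLA-DRB5 carry nearly the same letters on both sides of the box, and each was counted. Listed class II genes that did not rise were not searched, so the share of matches says nothing about the rises.

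**Figure D3:**
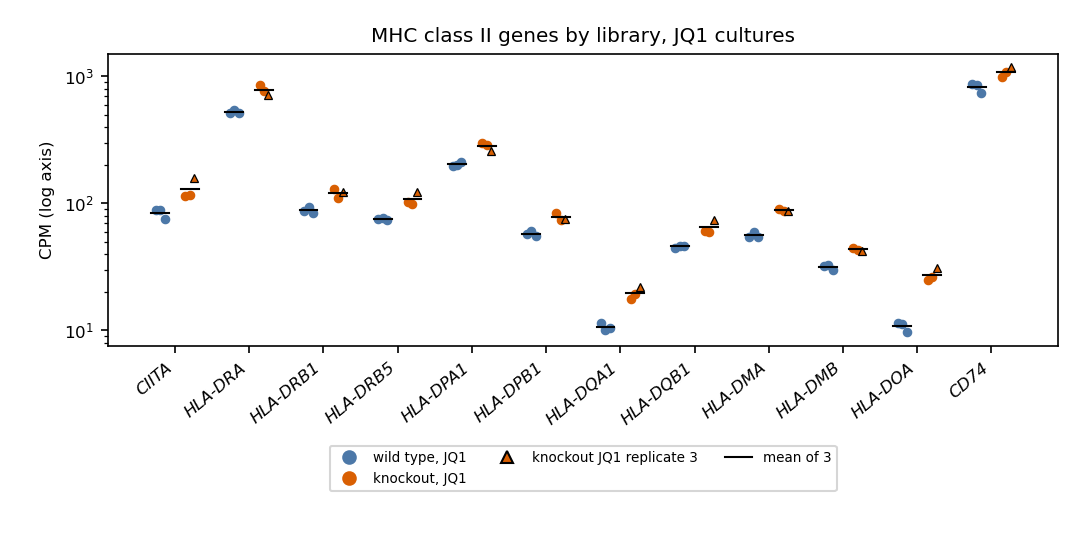
Level of MHC class II genes (CPM, log axis) in each of the 6 JQ1 libraries, by genotype; lines are means of 3 and the triangle is knockout replicate 3. The 3 knockout points lie above the 3 wild-type points for HLA-DRA, HLA-DMA, HLA-DOA and CIITA.

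MHC class I presentation, which shows cytosolic peptides to CD8 T cells, held fewer calls. Of 18 tested genes 3 rose (16.7%, against 3.01% of all tested genes) and none fell. Without knockout replicate 3, 3 rose and 2 fell, and without knockout replicate 2, 5 rose. The 3 were HLA-B (130.0 to 136 CPM in wild type and 168 to 191 CPM in the knockout, log2 0.40, adjusted p = 0.000555) and the endoplasmic reticulum chaperones of peptide loading PDIA3 (log2 0.36, adjusted p = 0.00727) and CALR (log2 0.21, adjusted p = 0.00807; call lost with no low-count filter or with the JQ1 libraries fitted alone; adjusted p 9.32e-05 to 0.0623 over the alternatives). Interferon-stimulated genes, the antiviral effectors, went mostly the other way: 9 of 38 fell and 2 rose (28.9% called, against 8.57% over all genes). OAS2, an RNA sensor that activates RNase L, measured 1.95, 2.08 and 2.22 CPM in wild type and 0.876, 0.933 and 0.855 CPM in the knockout (log2 fold change -1.23 ± 0.15 SE, adjusted p = 7e-05). HERC5, the ligase for ISG15, measured 3.89, 4.79 and 4.73 CPM in wild type and 3.35, 2.19 and 2.03 CPM in the knockout (log2 fold change -0.83 ± 0.17 SE, adjusted p = 0.00686; call lost with the JQ1 libraries fitted alone; adjusted p 0.000205 to 0.0532 over the alternatives). ISG20, an exonuclease, rose (22.6 to 26.3 CPM in wild type and 30.9 to 42.3 CPM in the knockout, log2 0.55, adjusted p = 0.00544). The count of falls dropped to 5 when any of 4 libraries was left out (replicates 2 and 3 of the JQ1 wild type, replicate 3 of the DMSO wild type, and replicate 3 of the knockout with JQ1), and to 1 with the JQ1 libraries alone. The count of rises ran from 1 to 4 over the alternatives, with 4 without knockout replicate 3, and in DMSO 5 rose and 2 fell.

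Genes of the invasive, neural-crest-like melanoma state fell more often than they rose. This state, with high AXL and extracellular matrix genes and low pigment genes, is linked to drug tolerance in melanoma. Of 28 tested genes 9 fell and 2 rose (39.3% called), with a median log2 fold change of -0.27. TGFBI, a matrix protein induced by TGF-beta (chromosome 5, 136028895 to 136063818 on the + strand), measured 125, 145 and 126 CPM in wild type and 15.04, 18.2 and 16.9 CPM in the knockout, a 7.896-fold difference (log2 fold change -2.98 ± 0.092 SE, adjusted p = 3.29e-11). WNT5A, the noncanonical WNT ligand, measured 62.3, 62.5 and 63.3 CPM in wild type and 38.99, 40.9 and 36.8 CPM in the knockout (log2 fold change -0.69 ± 0.061 SE, adjusted p = 3.81e-06). NGFR, the neurotrophin receptor of neural crest cells, measured 5.12, 4.16 and 4.14 CPM in wild type and 1.68, 1.66 and 1.899 CPM in the knockout (log2 fold change -1.35 ± 0.18 SE, adjusted p = 0.000163). Knockout and wild-type libraries did not overlap in these 3 genes. THBS1, an adhesive glycoprotein, also fell (log2 -0.51, adjusted p = 1.74e-05), as did FN1, fibronectin (log2 -0.63, adjusted p = 0.00021, named after its values were seen). CDH2, the neural cadherin, rose (163 to 168 CPM in wild type and 196 to 210.4 CPM in the knockout, log2 0.31, adjusted p = 0.000806). AXL, the receptor kinase often used to mark the state and named after its values were seen, measured 477, 500.2 and 430.2 CPM in wild type and 368, 381 and 445 CPM in the knockout (log2 fold change -0.24 ± 0.08 SE, adjusted p = 0.0892). Replicate 3 of the knockout lay within the wild-type range, and without it the adjusted p was 0.00712, with a range over alternatives of 0.00712 to 0.307, of which 3 called it.

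Pigment-lineage genes were called in both directions. MITF, the melanocyte master factor, measured 39.9, 37.6 and 40.2 CPM in wild type and 31.8, 32.2 and 27.6 CPM in the knockout (log2 fold change -0.37 ± 0.081 SE, adjusted p = 0.0102), with the call lost when the JQ1 libraries were fitted alone (adjusted p = 0.0534, range over alternatives 0.00147 to 0.0534). GPNMB, a lysosomal glycoprotein and MITF target, measured 82.3 to 84.98 CPM in wild type and 44.003 to 54.8 CPM in the knockout (log2 -0.76, adjusted p = 5.48e-06), while S100B, a melanoma marker, rose (35.6 to 37.9 CPM in wild type and 48.3 to 49.1 CPM in the knockout, log2 0.41, adjusted p = 0.000756). In all, 3 of 21 tested lineage genes fell and 1 rose (19.0% called, against 8.57% over all genes), or 3 and 2 without knockout replicate 3.

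Matrix and adhesion families fell at single members. Collagens fell at 6 of 34 tested genes (17.6%, against 5.56% of all tested genes) and rose at none. They fell at 11 without knockout replicate 3. COL13A1, a transmembrane collagen (2.93 to 4.59 CPM in wild type and 0.771 to 1.14 CPM in the knockout, log2 -1.95, adjusted p = 3.77e-05), COL6A3 of the microfibrillar collagen VI (1.29 to 1.82 CPM in wild type and 0.343 to 0.507 CPM in the knockout, log2 -1.81, adjusted p = 0.00014), COL8A1 (log2 -1.22, adjusted p = 0.000289) and the fibrillar COL5A1 (log2 -0.82, adjusted p = 0.0033) were among the 6. COL4A1 of basement membranes, named after its values were seen, measured 186 to 217 CPM in wild type and 189 to 278 CPM in the knockout (log2 0.16, adjusted p = 0.471). Integrins fell at 3 of 17 genes (17.6%), and at 5 without knockout replicate 3. The 3 were the fibronectin receptor subunit ITGA5 (log2 -0.51, adjusted p = 0.000412), the hemidesmosome subunit ITGB4 (log2 -1.19, adjusted p = 0.000623) and the collagen receptor subunit ITGA2 (log2 -0.54, adjusted p = 0.00234). Summed fibroblast markers were 10.5 to 13.2 CPM in wild type and 8.10 to 9.58 CPM in the knockout, of which only PDGFRA reached 1 CPM and COL1A2 was at 0; their part in the collagen falls was not tested.

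Laminins, which build basement membranes, changed in both directions. LAMA2 rose (18.97 to 20.5 CPM in wild type and 37.7 to 39.8 CPM in the knockout, log2 0.96, adjusted p = 1.92e-07) and 3 of 11 fell (36.4% called in all), or 1 without knockout or wild-type replicate 1. LAMB3 (4.19 to 5.02 CPM in wild type and 1.75 to 2.28 CPM in the knockout, log2 -1.13, adjusted p = 0.000355) lies in the chromosome 1 stretch, and LAMA3 fell by less (log2 -0.90, adjusted p = 0.0239; call lost without knockout replicate 1, wild-type replicates 1 or 3 or with the JQ1 libraries fitted alone; adjusted p 0.00134 to 0.104 over the alternatives). LAMA1 was 0.974, 1.00 and 0.592 CPM in wild type and had no count in the 3 knockout libraries, which makes it at least 7.76-fold lower when the floor is 3 counts per library. The adjusted p was 0.027 (call lost without knockout replicates 1 or 2, wild-type replicates 1 or 2; adjusted p 1.27e-10 to 0.0741 over the alternatives). Of the secreted proteases and inhibitors, 5 of 29 fell and 2 rose (24.1% called). There were 2 or 3 falls when any of 6 libraries was left out (JQ1 replicates 1 and 2 of either genotype, and DMSO replicates 2 and 3 of the wild type). ADAMTS12 fell (29.996 to 32.6 CPM in wild type and 14.5 to 15.6 CPM in the knockout, log2 -1.05, adjusted p = 1.98e-06), whereas the aggrecan-cleaving ADAMTS5 (0.251 to 0.408 CPM in wild type and 1.61 to 2.06 CPM in the knockout, log2 2.46, adjusted p = 0.0001) and ADAMTS1 (6.48 to 7.79 CPM in wild type and 12.1 to 13.6 CPM in the knockout, log2 0.80, adjusted p = 0.000103) rose. Among serpins and plasminogen genes SERPINA3 rose (log2 0.67, adjusted p = 3.21e-06) and SERPINA1 fell (log2 -0.80, adjusted p = 0.00693).

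Epithelial junction genes, silent or low in most melanoma cells, fell at 8 members. Of 71 listed keratin and desmosome genes 21 were tested, 8 fell (38.1% called) and none rose, or 5 with the JQ1 libraries alone. KRT80, a type II keratin, measured 12.8, 11.2 and 11.5 CPM in wild type and 2.93, 3.53 and 3.07 CPM in the knockout (log2 fold change -1.90 ± 0.10 SE, adjusted p = 1.81e-08). PKP2, plakophilin of the desmosome plaque, measured 5.78, 5.79 and 5.56 CPM in wild type and 1.71, 1.704 and 1.39 CPM in the knockout (log2 fold change -1.84 ± 0.15 SE, adjusted p = 1.82e-06). DSP, desmoplakin, measured 16.9, 18.04 and 16.03 CPM in wild type and 7.31, 9.98 and 9.21 CPM in the knockout (log2 fold change -0.94 ± 0.11 SE, adjusted p = 6.71e-05). In none of these did the genotypes overlap. KRT81 was nearly lost (3.64 to 4.27 CPM in wild type and 0.0317 to 0.305 CPM in the knockout, log2 -4.996, adjusted p = 4.97e-07). KRT8 (16.8 to 17.8 CPM in wild type and 14.6 to 16.4 CPM in the knockout, log2 -0.17, adjusted p = 0.219) and KRT18 (124 to 137 CPM in wild type and 125 to 137 CPM in the knockout, log2 -0.016, adjusted p = 0.934), the simple-epithelium pair found in many cell lines and named after their values were seen, did not pass. The median over the list was -0.51 with edgeR and -0.27 with DESeq2. Summed keratinocyte markers were 5.32 to 5.59 CPM in wild type and 3.998 to 5.32 CPM in the knockout, mostly KRT10, and their part in these falls was not tested.

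Signals and receptors of adhesion and growth followed a mixed pattern. NRP1, a coreceptor for semaphorins and VEGF, fell (72.9 to 76.4 CPM in wild type and 34.4 to 36.2 CPM in the knockout, log2 -1.08, adjusted p = 1.81e-08) as 1 of 10 falls and 4 rises among 56 axon guidance genes (25% called). Falls numbered 4 to 6 without knockout replicate 1 or 2 or wild-type replicate 1 or 2, and rises 0 to 2 without any JQ1 library but knockout replicate 2. DKK1 (6.05 to 7.0997 CPM in wild type and 1.79 to 2.06 CPM in the knockout, log2 -1.74, adjusted p = 5.56e-06) and DKK3 (log2 -0.91, adjusted p = 2.19e-05), secreted WNT antagonists or relatives, fell. With WNT5A they made up the 3 called of 37 WNT genes, a share of 8.11% near the 8.57% over all genes. Of 43 receptor tyrosine kinases and ligands 8 fell and 5 rose (30.2% called), or 13 and 5 without knockout replicate 3, with 4 falls without knockout replicate 1 and 2 rises without wild-type replicate 2. The collagen receptor DDR2 (160.2 to 171 CPM in wild type and 97.2 to 118 CPM in the knockout, log2 -0.60, adjusted p = 4.75e-05) and the VEGF receptor KDR (10.9 to 11.9 CPM in wild type and 5.16 to 6.36 CPM in the knockout, log2 -1.04, adjusted p = 5.79e-05) fell. The ligands TGFA (544 to 599 CPM in wild type and 730.1 to 812 CPM in the knockout, log2 0.42, adjusted p = 0.000137) and PDGFD (5.79 to 5.95 CPM in wild type and 10.2 to 11.97 CPM in the knockout, log2 0.89, adjusted p = 3.63e-05) rose. Targets of YAP and TEAD fell at 4 of 19 genes (21.1%, against 5.56% of all tested genes), with CRIM1 (log2 -0.30, adjusted p = 0.00107) and AJUBA (log2 -0.53, adjusted p = 0.00227) among them.

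**Figure D4:**
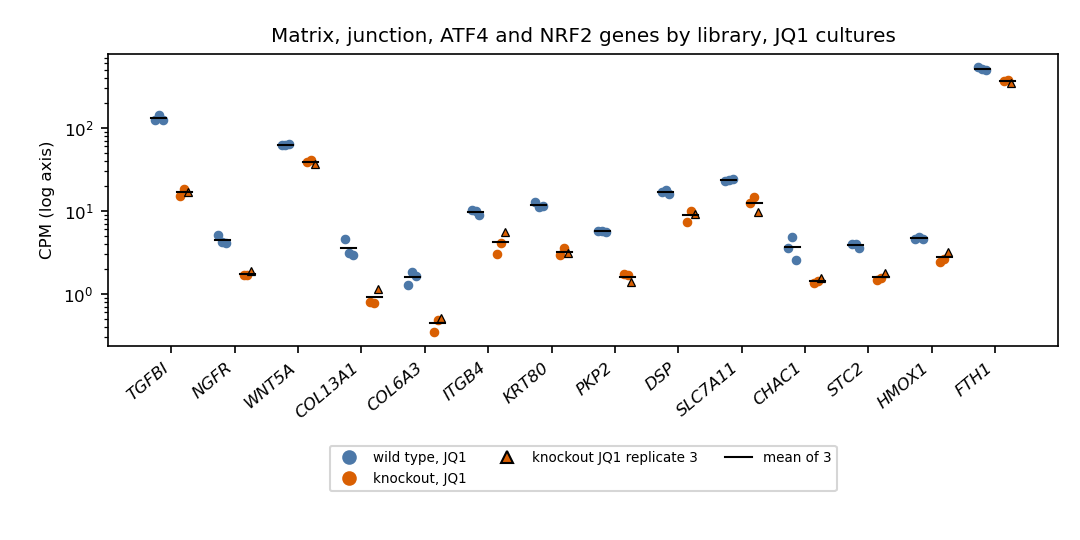
Level of matrix, junction, ATF4 and NRF2 genes (CPM, log axis) in each of the 6 JQ1 libraries, by genotype; lines are means of 3 and the triangle is knockout replicate 3. For TGFBI, KRT80, STC2 and FTH1 the knockout points lie below all wild-type points.

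In the stress programmes for amino acids and for oxidants every called gene was lower. ATF4 is the transcription factor of the integrated stress response, and of its 30 listed genes 10 fell and none rose (33.3% called), with a median of -0.17. The count was 14 without knockout replicate 3, 6 without wild-type replicate 2 and 14 with library totals. ATF4 itself measured 239.9, 278 and 238 CPM in wild type and 182, 175 and 202 CPM in the knockout (log2 fold change -0.44 ± 0.068 SE, adjusted p = 0.000774). STC2, a secreted glycoprotein among its targets, measured 3.96, 3.97 and 3.61 CPM in wild type and 1.45, 1.54 and 1.804 CPM in the knockout (log2 fold change -1.26 ± 0.14 SE, adjusted p = 2.95e-05). DDIT3, the proapoptotic factor CHOP, measured 10.99, 15.3 and 12.01 CPM in wild type and 7.62, 7.18 and 7.82 CPM in the knockout (log2 fold change -0.75 ± 0.12 SE, adjusted p = 0.00108). SLC7A11, the cystine importer shared with the NRF2 list (chromosome 4, 138164097 to 138242349 on the - strand), measured 22.7, 23.8 and 24.2 CPM in wild type and 12.5, 14.7 and 9.62 CPM in the knockout (log2 fold change -0.95 ± 0.11 SE, adjusted p = 5.91e-05). The 4 genes had no overlap between genotypes. CHAC1, which degrades glutathione and was named after its values were seen, changed by -1.34 (adjusted p = 0.00329). ATF3 fell as well (3.11 to 4.94 CPM in wild type and 2.15 to 2.44 CPM in the knockout, log2 -0.87, adjusted p = 0.0107), in the chromosome 1 stretch (call lost without wild-type replicates 1 or 2; adjusted p 0.000747 to 0.0579 over the alternatives). The letters TGATGNAA on either strand, the core of the CARE element to which ATF4 binds, were found in the promoters of CHAC1 and ATF3 among 8 fallen genes with an entry, against 3.19% of all promoters. Listed genes that did not fall were not searched, so this share says nothing about the falls.

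NRF2 drives antioxidant genes, and its list with iron and ferroptosis genes fell at 9 of 27 (33.3%) and rose at none, with the same count of 9 without knockout replicate 3. The median was -0.22. The ferritin chains FTH1 (540.0, 513 and 496 CPM in wild type and 372, 384 and 353 CPM in the knockout; log2 fold change -0.48 ± 0.054 SE, adjusted p = 3.97e-05) and FTL (873 to 935 CPM in wild type and 713 to 746 CPM in the knockout, log2 -0.31, adjusted p = 0.000523), which store iron, both fell without overlap. ABCC2, an exporter of glutathione conjugates, measured 18.2, 17.6 and 17.5 CPM in wild type and 10.6, 10.1 and 8.45 CPM in the knockout (log2 fold change -0.88 ± 0.091 SE, adjusted p = 1.89e-05). Named after their values were seen, GCLM, a subunit of the first enzyme of glutathione synthesis (log2 -0.51, adjusted p = 0.00115), and HMOX1, heme oxygenase (log2 -0.76, adjusted p = 0.00375), also fell. NFE2L2, the gene of NRF2 (log2 -0.034, adjusted p = 0.846), and its target NQO1 (830.4 to 847 CPM in wild type and 744 to 809 CPM in the knockout, log2 -0.12, adjusted p = 0.171), likewise named afterwards, did not pass.

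Hypoxia and glycolysis genes, chaperones and lysosomal genes each held large single changes. Of 34 hypoxia and glycolysis genes 7 fell and 1 rose (23.5% called, against 8.57% over all genes). The surface carbonic anhydrase CA9 measured 9.67, 10.6 and 9.64 CPM in wild type and 3.503, 1.91 and 3.01 CPM in the knockout (log2 fold change -1.82 ± 0.24 SE, adjusted p = 0.000203). NDRG1 (179.9 to 193 CPM in wild type and 92.3 to 105 CPM in the knockout, log2 -0.93, adjusted p = 3.99e-07) and the lipase inhibitor ANGPTL4 (31.1 to 34.4 CPM in wild type and 16.8 to 23.3 CPM in the knockout, log2 -0.78, adjusted p = 0.00147) fell too. The mitochondrial chaperonin pair HSPD1 (526, 519.9 and 530.4 CPM in wild type and 285, 283 and 248 CPM in the knockout; log2 fold change -0.95 ± 0.06 SE, adjusted p = 1.33e-07) and HSPE1 (74.7 to 80.5 CPM in wild type and 41.3 to 48.2 CPM in the knockout, log2 -0.77, adjusted p = 8.7e-06) fell together. Both genes share a stretch of chromosome 2 in the annotation, and whether the counting used strand is not stated, so reads may be shared between them. Of 28 chaperones 3 fell and 5 rose (28.6% called), or 4 and 8 without knockout replicate 3. With the JQ1 libraries alone 1 rise was called, and rises numbered 1 to 8 over the alternatives. The rises included the endoplasmic reticulum isomerase PDIA6 (log2 0.28, adjusted p = 0.00318). LAMP2, a lysosomal membrane protein needed for chaperone-mediated autophagy, measured 85.3, 86.7 and 87.2 CPM in wild type and 10.3, 9.697 and 9.78 CPM in the knockout, an 8.697-fold difference (log2 fold change -3.12 ± 0.063 SE, adjusted p = 3.9e-13). SQSTM1, the autophagy receptor p62 (540.1 to 585 CPM in wild type and 371 to 413 CPM in the knockout, log2 -0.54, adjusted p = 1.54e-05), and CTSK, a collagen-cleaving cathepsin (log2 -1.29, adjusted p = 2.41e-05), fell. The lysosome and autophagy list as a whole did not lean lower. Of its 33 tested genes 3 fell and 3 rose (18.2% called), 22 log2 fold changes were positive, and the median was 0.056.

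Histone and mitotic genes fell wherever they were called, and replication genes were called in both directions. Replication-dependent histones are made in S phase without poly(A) tails, so their capture here rests on ribosomal depletion. Of 71 tested, 14 fell and none rose (19.7% called), 57 log2 fold changes were negative, and the median was -0.12. The count of falls was 19 without knockout replicate 3, 6 without wild-type replicate 2 or with the JQ1 libraries alone, and 23 with library totals. HIST1H1A, a linker histone, measured 34.8, 37.3 and 33.9 CPM in wild type and 21.1, 22.8 and 20.8 CPM in the knockout (log2 fold change -0.71 ± 0.089 SE, adjusted p = 0.000111), and HIST2H2BA fell too (log2 -0.62, adjusted p = 0.000375). Near-identical histone genes share reads, so single members are uncertain. Mitotic genes fell at 5 of 35 (14.3%, against 5.56% of all tested genes) and rose at none. NEK2, a centrosome kinase (46.6 to 47.8 CPM in wild type and 27.3 to 32.4 CPM in the knockout, log2 -0.66, adjusted p = 2.34e-05), and CENPF, a kinetochore protein (709.7 to 754 CPM in wild type and 407 to 494 CPM in the knockout, log2 -0.65, adjusted p = 6.94e-05), fell and lie in the chromosome 1 stretch. Outside the chromosome stretches described further on, 3 of 33 mitotic genes fell, against 4.99% of all genes there. The count of falls among the 35 was 8 without knockout replicate 3, 3 without any single DMSO library except knockout replicates 1 and 2, and 2 without any single wild-type JQ1 library. Replication genes gave 3 rises and 1 fall of 36 (11.1% called, against 8.57% over all genes). Rises numbered 1 without any single wild-type JQ1 library and 7 in DESeq2. Of the 36 log2 fold changes 29 were positive, with a median of 0.12, so the list leaned higher. The origin protein ORC6 rose (21.9 to 22.7 CPM in wild type and 29.3 to 32.2 CPM in the knockout, log2 0.47, adjusted p = 0.0022). The helicase subunit MCM4 fell (283 to 292 CPM in wild type and 196 to 199 CPM in the knockout, log2 -0.54, adjusted p = 2.59e-06). Of 21 G1 cyclins and CDK inhibitors 1 was called (4.76%), CDKN1A (log2 0.22, adjusted p = 0.0405). Its call was lost without knockout replicate 3, wild-type replicates 1, 2 or 3, or wild-type replicates 1 or 3 in DMSO. The call was also lost with library totals, in limma, with no low-count filter, with the replicate number as a block or with the JQ1 libraries fitted alone. Its adjusted p ran from 0.012 to 0.159 over the alternatives.

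Targets of p53 rose at 5 and fell at 2 of 24 (29.2% called, against 8.57% over all genes). The exonuclease AEN (73.5 to 85.3 CPM in wild type and 103 to 119.6 CPM in the knockout, log2 0.43, adjusted p = 0.00256) and TP53INP1 (6.75 to 7.22 CPM in wild type and 8.86 to 10.6 CPM in the knockout, log2 0.50, adjusted p = 0.0101) rose. The count of rises was 2 to 3 without knockout replicate 1 or any single wild-type JQ1 library, and 10 rose in DMSO. GDF15, a stress cytokine that several pathways induce, measured 0.4397, 0.594 and 0.355 CPM in wild type and 0, 0 and 0.09497 CPM in the knockout (adjusted p = 0.0019), on 42 wild-type and 3 knockout counts in all, too few for a ratio. BCL2A1, an antiapoptotic member of the BCL2 family and NF-κB target, measured 1.54, 1.15 and 1.98 CPM in wild type and 0.343, 0.406 and 0.285 CPM in the knockout (log2 fold change -2.19 ± 0.30 SE, adjusted p = 0.000244). BIK, a proapoptotic member, was the other of 2 called among 16 genes, a share of 12.5% (log2 -1.35, adjusted p = 0.0255; call lost without knockout replicates 1, 2 or 3, wild-type replicates 2 or 3, in DESeq2 or with the JQ1 libraries fitted alone; adjusted p 0.0223 to 0.122 over the alternatives).

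Ribosomal protein genes rose by small amounts. Of 83 tested cytosolic ribosomal protein genes 24 rose and none fell (28.9% called), 81 were positive, and the median log2 fold change was 0.15. RPS12 measured 483, 499 and 479 CPM in wild type and 641, 598 and 584 CPM in the knockout (log2 fold change 0.32 ± 0.053 SE, adjusted p = 0.0013), and RPS6, the S6 kinase substrate, 1889, 1931 and 1976 CPM in wild type and 2379.6, 2180.4 and 2312 CPM in the knockout (log2 fold change 0.25 ± 0.042 SE, adjusted p = 0.00174). RPL41 (log2 0.28, adjusted p = 0.00288) and RPS27L (log2 0.39, adjusted p = 0.00341) rose by like amounts. The count was 45 without knockout replicate 3, 9 without knockout replicate 1 or wild-type replicate 1, 12 without wild-type replicate 3, 8 with the JQ1 libraries alone and 17 with library totals, where 75 stayed positive. Each setting gave rises only. Nuclear genes of oxidative phosphorylation rose at 9 of 84 (10.7%, against 3.01% of all tested genes), with COX6C (9.54 to 10.2 CPM in wild type and 13.3 to 14.6 CPM in the knockout, log2 0.52, adjusted p = 0.00257) and ATP5E (log2 0.32, adjusted p = 0.00328) among them. That count ranged from 3 to 18 and was 16, beside 1 fall, without knockout replicate 3 and 3 or 4 without all but 2 of the other single libraries. The 13 protein genes of the mitochondrial genome went the other way, with 4 falls (30.8%) and no rise, a median of -0.19, and 8 falls without knockout replicate 3. MT-CO3 (log2 -0.29, adjusted p = 0.000646) and MT-ND4 (log2 -0.40, adjusted p = 0.00523) were among them. Together these 13 genes took 1.47% to 1.60% of counts in the knockout JQ1 libraries and 1.83% to 1.89% in the wild-type ones.

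Few genes of the machinery that JQ1 acts on passed the test. The BET genes BRD2 (51.7 to 53.8 CPM in wild type and 48.6 to 55.1 CPM in the knockout, log2 -0.043, adjusted p = 0.814) and BRD3 (log2 0.12, adjusted p = 0.438) did not pass the test. HEXIM1, the P-TEFb inhibitor that BET inhibitors commonly raise, measured 152 to 165 CPM in wild type and 147 to 174 CPM in the knockout (log2 -0.0029, adjusted p = 0.989) and was 0.79 log2 units higher under JQ1 than in DMSO in wild type. MYC, whose transcription depends on BET proteins in many cancers, measured 9.202, 9.797 and 9.703 CPM in wild type and 11.6, 10.7 and 14.5 CPM in the knockout (log2 fold change 0.37 ± 0.11 SE, adjusted p = 0.0515). Its call passed in 5 of 20 alternatives, with adjusted p from 0.0222 to 0.284. Of 18 BET and P-TEFb genes 1 fell, the elongation factor ELL2 (log2 -0.38, adjusted p = 0.0177; call lost without wild-type replicate 3 or with the JQ1 libraries fitted alone; adjusted p 0.00427 to 0.0932 over the alternatives), and of 30 Pol II elongation genes 1 fell, MED14 (log2 -0.27, adjusted p = 0.0142; call lost without wild-type replicate 2 or with the JQ1 libraries fitted alone; adjusted p 0.00189 to 0.106 over the alternatives). These shares were 5.56% and 3.33%, against 8.57% over all genes. Without knockout replicate 3, 2 of 17 BET and P-TEFb genes fell (11.8%, against 10.5% over all genes in that fit), so the first share then lay above the background. None of 12 marker genes of BET inhibition passed in the edgeR fit with TMM scaling and all 12 libraries (2 had an unadjusted p under 0.05). With edgeR, RLE size factors gave 1 rise, library totals 1 fall and leaving out knockout replicate 3 gave 3 falls, while DESeq2 called 2. Of 22 ERK feedback and output genes 3 rose and 2 fell (22.7% called), with the feedback inhibitor SPRY4 down (408 to 455 CPM in wild type and 289 to 343 CPM in the knockout, log2 -0.50, adjusted p = 0.000482) and the phosphatase DUSP6 up (295 to 315 CPM in wild type and 350.3 to 371 CPM in the knockout, log2 0.23, adjusted p = 0.00645; call lost with the JQ1 libraries fitted alone; adjusted p 6.22e-05 to 0.0614 over the alternatives). With the JQ1 libraries alone none of these rises was called, and without knockout replicate 3 there were 5 falls.

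Cancer-testis antigens, germline genes switched on in tumours, included the most extreme changes. Of 103 listed, 49 were tested, 14 fell and 5 rose (38.8% called). GAGE1 measured 9.33, 8.83 and 8.14 CPM in wild type and had no count in any knockout library, which makes it at least 79.5-fold lower. GAGE12C and GAGE12D, listed with identical counts, measured 6.53, 7.83 and 6.24 CPM in wild type and 0.0762, 0.203 and 0.158 CPM in the knockout (log2 fold change -5.52 ± 0.24 SE, adjusted p = 1.72e-09). GAGE12G, in contrast, measured 1.099, 0 and 0 CPM in wild type and 4.46, 7.02 and 3.83 CPM in the knockout (log2 fold change 3.74 ± 0.74 SE, adjusted p = 0.00462), with an adjusted p of 0.321 in DESeq2, the highest of the alternatives. The GAGE copies are nearly identical on the X chromosome, so the split of reads among them is uncertain. The called share counts such copies as separate genes. MAGEA10 also fell (47.4 to 50.9 CPM in wild type and 31.1 to 33.1 CPM in the knockout, log2 -0.64, adjusted p = 7.69e-06).

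The other largest falls were scattered over functions. VAT1L, a homolog of a synaptic vesicle protein, measured 81.9, 89.99 and 82.03 CPM in wild type and 4.53, 4.26 and 5.03 CPM in the knockout (log2 fold change -4.19 ± 0.095 SE, adjusted p = 9.89e-13). TMPRSS15, enteropeptidase, measured 5.53 to 5.71 CPM in wild type and 0.222 to 0.533 CPM in the knockout and LINC01608, a noncoding RNA, 4.75 to 6.48 CPM in wild type and 0 to 0.1904 CPM in the knockout. CUL4B, a ubiquitin ligase scaffold, measured 98.8, 101 and 104 CPM in wild type and 12.2, 13.02 and 9.18 CPM in the knockout (log2 fold change -3.15 ± 0.10 SE, adjusted p = 3.29e-11). After GAGE12G, the largest rise was that of the noncoding LINC01297 (27.01, 32.6 and 36.7 CPM in wild type and 491, 381 and 259 CPM in the knockout; log2 fold change 3.55 ± 0.19 SE, adjusted p = 1.81e-08), in which the knockout libraries were themselves widely spread. PXDN, a matrix peroxidase, rose (8.96 to 10.4 CPM in wild type and 25.7 to 33.6 CPM in the knockout, log2 1.62, adjusted p = 1.48e-07). So did TAC1, the precursor of substance P (3.05 to 3.5996 CPM in wild type and 9.47 to 11.5 CPM in the knockout, log2 1.63, adjusted p = 3.14e-06), and CHRDL1, a BMP antagonist (28.7 to 32.99 CPM in wild type and 72.8 to 84.96 CPM in the knockout, log2 1.40, adjusted p = 1.81e-08). NAP1L3 (log2 1.51, adjusted p = 8.99e-07), the transcriptional cofactor ZFPM2 (log2 1.23, adjusted p = 0.00176) and the glycosyltransferase MGAT4A (log2 1.22, adjusted p = 0.000279) followed. The genotypes overlapped in none of these 6. AC116533.1, a sequence with no assigned function, was also called higher (log2 2.94, adjusted p = 0.0318; call lost without knockout replicate 3, wild-type replicates 1 or 2, in DESeq2 or with the JQ1 libraries fitted alone; adjusted p 2.73e-20 to 0.221 over the alternatives).

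Large families mostly sat near the background of 8.57% called, but ABC transporters and cadherins lay above it. Zinc finger genes of the ZNF family gave 14 rises and 11 falls of 499 (5.01%), solute carriers 8 and 14 of 258 (8.53%), TRIM genes 2 and 2 of 46 (8.70%; 2 and 5 of 48 without knockout replicate 3), and HOX genes 3 rises of 35 (8.57%), or 1 rise and 1 fall without knockout replicate 3. These counts moved by over 1.5 times without several of the JQ1 libraries, from 5 to 22 rises over the alternatives in the ZNF family and 6 to 22 falls in the solute carriers. HOX rises numbered 1 to 3 over the alternatives. Most HOX genes leaned lower without a call, with 28 of 35 log2 fold changes negative and a median of -0.17. Single members still moved far. TRIM51 (0.444 to 0.705 CPM in wild type and 2.78 to 3.85 CPM in the knockout, log2 2.52, adjusted p = 1.98e-06) and ZNF716 (0.594 to 0.828 CPM in wild type and 2.64 to 3.17 CPM in the knockout, log2 1.96, adjusted p = 6.19e-06) rose, and ZNF208 (5.56 to 5.92 CPM in wild type and 0.665 to 1.41 CPM in the knockout, log2 -2.50, adjusted p = 1.58e-06), ZNF536 (log2 -3.62, adjusted p = 0.000635) and the bicarbonate cotransporter SLC4A4 (1.597 to 2.04 CPM in wild type and 0.267 to 0.3799 CPM in the knockout, log2 -2.45, adjusted p = 3.77e-05) fell. ABC transporters fell at 7 of 38 (18.4%) and rose at none, with the drug exporter ABCG2 (3.04 to 3.99 CPM in wild type and 1.599 to 1.95 CPM in the knockout, log2 -1.03, adjusted p = 0.00083) alongside ABCC2. Their falls numbered 3 with the JQ1 libraries alone and 3 to 10 over the alternatives. Outside the chromosome stretches described below, 6 of 37 fell. The inhibitor of differentiation ID4 fell (1.42 to 1.86 CPM in wild type and 0.267 to 0.527 CPM in the knockout, log2 -2.20, adjusted p = 0.000179). It was 1 of 5 falls among 49 TGF-beta and BMP genes (10.2% called, near the 8.57% over all genes), a count of 3 to 8 over the alternatives. Protocadherins and cadherins split into 6 rises and 7 falls of 76 (17.1% called, with 4 falls without wild-type replicate 2), with PCDH10 down (log2 -0.69, adjusted p = 1.77e-06) and PCDHGB2 up (log2 0.84, adjusted p = 0.000756). Of 89 tested H/ACA guide RNAs 1 rose, SNORA63 (log2 0.38, adjusted p = 0.0226; call lost without knockout replicate 1, wild-type replicates 2 or 3, in limma or with the JQ1 libraries fitted alone; adjusted p 0.00604 to 0.11 over the alternatives).

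Position on the chromosome went with some of the calls. On chromosome 1, 139 of 301 tested genes distal to MAPKAPK2 were lower (46.2%) and 1 higher (0.332%), or 46.5% called in all. Among the 21397 other tested genes 8.04% were called, 4.99% lower and 3.05% higher. The stretch where neighbours moved together ran from 205767986 to 247078755 (GRCh38, RAB29 to ZNF670), held 176 genes, and had a median log2 fold change of -0.43 under JQ1 and -0.39 in DMSO. It contains MAPKAPK2, IL24, DUSP10, ATF3, LAMB3, NEK2, CENPF, HIST3H2BB, HIST3H2BA, EGLN1 and ABCB10. A segment of chromosome 17 from 4269259 to 7252491 (44 genes) went up, with a median of 0.42 under JQ1 and 0.40 in DMSO, and a short one of chromosome 4 from 183797692 to 185400628 (12 genes) by 0.32 and 0.33. DNA copy number was not measured here, and its part in these values was not tested. Outside these stretches 1677 of 21298 genes were called (7.87%), 615 higher (2.89%) and 1062 lower (4.99%). On the X chromosome LAMP2 (120427827 to 120469365) and CUL4B (120524609 to 120575794) fell by like amounts, while their neighbours MCTS1 (log2 fold change 0.0071), ZBTB33 (0.0077) and C1GALT1C1 (0.089), named after their values were seen, did not pass.

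Most of the genes called under JQ1 had a genotype difference of the same sign without the drug. In DMSO, 1718 genes were called (7.92%), 754 higher (3.47%) and 964 lower (4.44%), between the 6 DMSO libraries, with the estimate of the spread shared with the JQ1 contrast. Of the 1860 genes called under JQ1, 1728 (92.9%) had the same sign in DMSO. The test of the difference between the 2 genotype effects called 29 genes (0.134%), 22 in which the effect was lower under JQ1 and 7 in which it was higher, and 24 of the 29 were also called under JQ1. At an unadjusted p under 0.05 there were 1817. DESeq2 called 154 genes and leaving out single libraries gave 8 to 88.

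Among the genes whose difference between conditions was called, ICAM1 fell by 1.46 on the log2 scale under JQ1 against a DMSO value of -0.53 (adjusted p = 0.00146), a difference of -0.93 ± 0.13 SE, adjusted p = 0.0149. In DMSO its libraries read 53.1, 55.4 and 54.97 CPM in wild type and 34.5, 38.6 and 40.2 CPM in the knockout. KRT80 had -1.90 under JQ1 and -0.92 (adjusted p = 4.58e-06) in DMSO, a difference called in all 19 alternatives run (-0.98 ± 0.13 SE, adjusted p = 0.00838). TGFBI had -2.98 and -2.17 (adjusted p = 1.82e-09), a difference of -0.81 ± 0.13 SE, adjusted p = 0.0208. SLC7A11 had -0.95 under JQ1 against -0.016 (adjusted p = 0.956) in DMSO, a difference of -0.93 ± 0.15 SE, adjusted p = 0.0208. Its DMSO libraries overlapped, at 73.6, 75.4 and 68.2 CPM in wild type and 73.6, 70.8 and 70.4 CPM in the knockout. ABCC2 also had a more negative value under JQ1 (-0.88 against -0.17, adjusted p = 0.265; difference -0.71 ± 0.12 SE, adjusted p = 0.0323), as did ADAMTS12 (-1.05 against -0.34, adjusted p = 0.0169; difference -0.70 ± 0.12 SE, adjusted p = 0.0306). For CXCL8 the difference did not pass (-2.90 against -1.91, adjusted p = 2.35e-07; difference -0.98 ± 0.20 SE, adjusted p = 0.0972). LINC01297 (3.55 against 1.91, adjusted p = 6.51e-06; difference 1.64 ± 0.25 SE, adjusted p = 0.0191) and COX6C (0.52 against -0.24, adjusted p = 0.163; difference 0.76 ± 0.13 SE, adjusted p = 0.0395) were more positive under JQ1.

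Named after their values were seen, MFAP2, a microfibril protein, and STRA6, a retinol transporter, had differences called in all 19 alternatives (-1.30 ± 0.17 SE, adjusted p = 0.00838 for MFAP2; -1.11 ± 0.13 SE, adjusted p = 0.00838 for STRA6). MFAP2 measured 9.47 to 11.3 CPM in wild type and 3.57 to 4.72 CPM in the knockout under JQ1, and 26.2 to 27.8 CPM in wild type and 22.3 to 29.2 CPM in the knockout in DMSO. STRA6 measured 48.1 to 62.3 CPM in wild type and 21.4 to 25.4 CPM in the knockout under JQ1, and 55.7 to 58.3 CPM and 48.8 to 56.2 CPM in DMSO. Both were further apart between genotypes with the drug than without it.

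**Figure D5:**
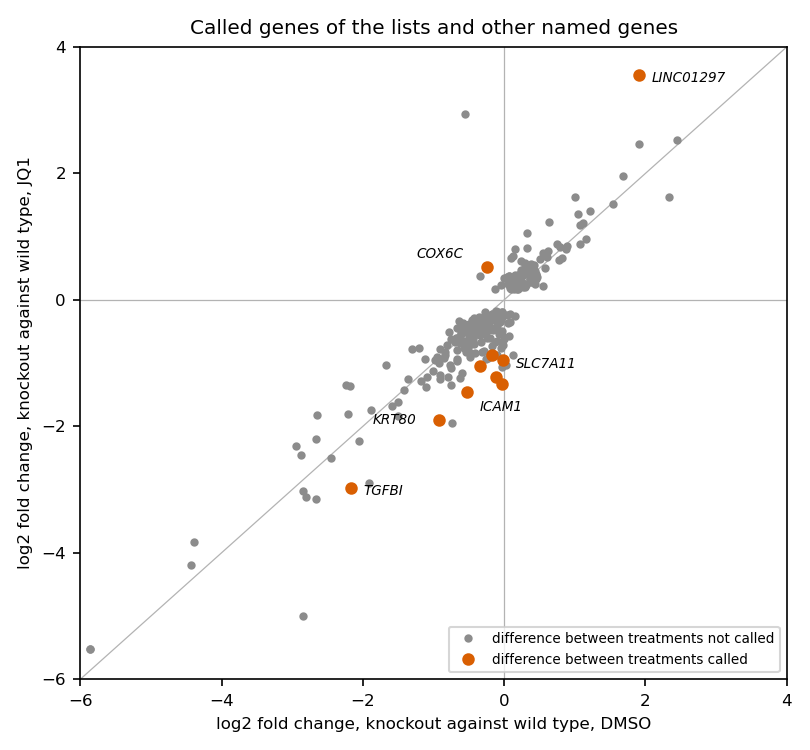
Knockout minus wild-type log2 fold change in DMSO (horizontal) against the same under JQ1 (vertical), for 318 genes of the lists or named in the text that were called under JQ1 and whose 2 group means sum to at least 2 CPM. The diagonal marks equal values, and 3 genes beyond the axes are left out (GAGE1, GAGE12G and LINC01608). Of the 318, 304 had the same sign on both axes, and 10 had a called difference between conditions.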

How the data were processed

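RNA from 12 A375 samples was sequenced after ribosomal RNA depletion, with the NEBNext Ultra II directional kit, per the labels' protocols. Trim Galore, cutadapt, FastQC, MultiQC, kallisto, DESeq2 and the build GRCh38.p10 are named, without versions or roles, in the submitters' processing notes. Estimated counts per gene symbol were deposited in a table of their own, and normalized signal in another. The estimated counts were not whole numbers, although whole counts had been foreseen, and were rounded. The deposited normalized signal served only in an alternative fit (limma on log2 of value plus 1). Whether the counting used strand is not given in the sources used here, so antisense and overlapping genes are uncertain, as are near-identical copies. No column was left without a sample (0 unused columns).

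Samples given DMSO were grouped by the treatment label, although titles call them untreated. All 12 libraries entered edgeR's quasi-likelihood fit (edgeR 4.0.16, R 4.3.3) with 4 groups of 3, filterByExpr, TMM scaling and no other covariate. P-values are two-sided and adjusted by Benjamini-Hochberg over all 21698 genes tested, with a threshold of 0.05. A log2 fold change is knockout minus wild type with edgeR's prior count of 0.125. Its SE is its size divided by the square root of F. Levels in CPM divide each count by the library total times its TMM factor, per 1000000. The scripts were tested on simulated data. Genes with no count in a group are given as a bound from a floor of 3 counts per library, which covers counting error only.

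The text names 10 genes of the p38, MK2 and BET pathways always, then the 10 largest rises and 10 largest falls among called genes of at least 5 CPM in either group without overlap, then up to 4 called genes per list with the smallest adjusted p. Other genes are marked as named after their values were seen. A few results that this rule would give are not reported here. The members and the 57 gene lists were chosen with earlier results of these data known, so counts over them are descriptions and carry no test of their own. Promoters are the 250 bases before the RefSeq start on GRCh38.p14, and positions and 3′ untranslated regions are from GENCODE 29.

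Alternatives were DESeq2 1.42.0, RLE size factors, library totals, no low-count filter, at least 1 CPM in 3 libraries, the 6 JQ1 libraries alone, an adjusted p of 0.01, limma 3.58.1 on the normalized signal, the replicate number as a block, and each library left out. Counting only genes outside the chromosome segments was added after seeing the data.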

Additional observations from a re-analysis of the deposited data

Results flagged for a closer look

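The genotype effect of 8 named genes differed between JQ1 and DMSO by edgeR's test of the difference itself, which is what brought them here. The values are the effect under JQ1 minus that in DMSO, on the log2 scale. ICAM1, the adhesion receptor, had -0.93 ± 0.13 SE, adjusted p = 0.0149; 9.9e-08 to 0.0579 over 19 alternatives, of which 16 called it. KRT80, the keratin, had -0.98 ± 0.13 SE, adjusted p = 0.00838; 3.95e-07 to 0.044 over 19 alternatives, of which 19 called it. TGFBI, the matrix protein, had -0.81 ± 0.13 SE, adjusted p = 0.0208; 4.33e-07 to 0.0735 over 19 alternatives, of which 12 called it.

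The cystine importer SLC7A11 had -0.93 ± 0.15 SE, adjusted p = 0.0208; 1.23e-08 to 0.103 over 19 alternatives, of which 10 called it. ABCC2, the conjugate exporter, had -0.71 ± 0.12 SE, adjusted p = 0.0323; 6.71e-05 to 0.172 over 19 alternatives, of which 6 called it, so its call rests on the settings. ADAMTS12, the secreted protease, had -0.70 ± 0.12 SE, adjusted p = 0.0306; 6.71e-05 to 0.15 over 19 alternatives, of which 11 called it. In these 6 genes the knockout was further below wild type under JQ1 than in DMSO.

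Only LINC01297 and COX6C of the 8 were more positive under JQ1. LINC01297, a noncoding RNA, had 1.64 ± 0.25 SE, adjusted p = 0.0191; 5.42e-22 to 0.0816 over 19 alternatives, of which 13 called it, and its knockout JQ1 libraries ran from 259 to 491 CPM. COX6C, a subunit of cytochrome oxidase, had 0.76 ± 0.13 SE, adjusted p = 0.0395; 0.000464 to 0.154 over 19 alternatives, of which 9 called it. Without knockout JQ1 replicate 3 all 8 were called, with adjusted p between 0.00013 and 0.0332.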

How the results depend on the processing

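The naming rule gave 189 tested genes, not all of them described above. Of these 181 were called, and 133 kept their call in all alternatives that tested them, 20 at most. Over these genes and alternatives, 3496 values kept their side of the threshold, 275 lost the call, 6 gained it and none reversed. Of 29 further genes named after their values were seen 15 were called, and 14 kept the call throughout. Here 576 values kept their side, 1 lost the call (CD74), 3 gained it (AXL) and none reversed. Calls under JQ1 numbered 922 (280 higher, 642 lower) with the 6 JQ1 libraries fitted alone and 965 (303 higher, 662 lower) at an adjusted p of 0.01. An adjusted p of 0.01 left 926 calls for genotype in DMSO, 4781 for JQ1 in wild type, where the threshold of 0.05 gave 7187, and 6 for the difference between conditions. That difference gave 154 calls with DESeq2 and 236 with no low-count filter, against 29. Leaving out 1 library gave 1223 to 2331 calls under JQ1 (402 to 850 higher, 817 to 1481 lower), 1092 to 2650 in DMSO, 8 to 88 for the difference and 5647 to 8455 for JQ1 in wild type. The lowest count under JQ1 came without wild-type JQ1 replicate 2, and higher calls fell to 425, 406 and 402 without wild-type JQ1 replicates 1, 2 and 3. The DMSO count was 1092 without knockout DMSO replicate 3, 1102 and 1096 without wild-type DMSO replicates 1 and 2, and 2650 without knockout JQ1 replicate 3. Deviations of same-numbered libraries correlated from -0.49 to 0.37 over 18 pairs, with 4 pairs over 0.1, so the numbers were not taken as pairs. Differently numbered JQ1 libraries also correlated across genotypes, from -0.27 (knockout 2 with wild-type 1) to 0.40 (knockout 3 with wild-type 1). Knockout replicates 1 and 2 had 0.38 and 0.34 with wild-type replicate 3. The main fit holds no term for such shared deviations, and their part in the calls was not tested. The fit with the replicate number as a block called 1569 genes under JQ1 (530 higher, 1039 lower). Of the 181 called genes of the rule 13 lost the call in that fit, of which CDKN1A (adjusted p = 0.0632) is described above, and 1 gene for AU-rich element binding proteins was called lower. Depth limits genes of a few counts, such as GDF15, PTGS2 and LAMA1.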

Other observations

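The response to the drug itself differed in size among the genes that separate the genotypes. These values are JQ1 minus DMSO on the log2 scale, from the same edgeR fit. They share the JQ1 libraries with the genotype comparison and so are set beside it without a joint test. CXCL8 changed by -1.18 in wild type and -2.16 in the knockout, CXCL1 by -1.86 in wild type and -1.86 in the knockout and ICAM1 by -1.21 in wild type and -2.14 in the knockout, so all 3 inflammatory genes were lower with the drug in both genotypes. TGFBI changed by 1.24 in wild type and 0.43 in the knockout, a rise with the drug in both.

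SLC7A11 changed by -1.62 in wild type and -2.55 in the knockout, and KRT80 by -1.21 in wild type and -2.19 in the knockout. HLA-DRA, by contrast, did not pass the test in either genotype, with -0.15 in wild type and 0.041 in the knockout (adjusted p = 0.0735 and 0.645). HEXIM1, used as a sign of BET inhibition, changed by 0.79 in wild type and 0.78 in the knockout. FTH1 changed by 1.19 in wild type and 1.15 in the knockout, so the ferritin heavy chain rose with the drug while remaining lower in the knockout than in wild type.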
